A study of Mus musculus with 18 samples.

Results

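GFP+ Tcf21-lineage cardiac fibroblasts collected 3 days after sham surgery at P2, when the pups were at P5, were compared with those of un-manipulated P2 pups. The groups, P2 sham +3 days and P2 baseline, hold 3 libraries each, which is 6 of the 18 libraries of the series, and were taken from the sample labels. All pups carried TCF21MerCreMer/+; RosamTmG/+ on a C57BL/6J background and received tamoxifen at P1, so that Cre, driven from the Tcf21 locus, switched on membrane GFP in this lineage. P2 baseline cells were therefore collected 1 day after labelling and the sham cells 4 days after it. Sham surgery opened the chest between the ribs, under hypothermia and with buprenorphine, and left the heart itself uncut. Growth from P2 to P5 and the surgery with its anaesthesia and analgesia cannot be told apart in this design. Ventricles were freed of atria and valves, their apical portion was dissociated and GFP+ cells were sorted by flow cytometry, and neither the sex of the pups nor their number per library is given in the sources used here. Replicates are separate samples by their labels. The p-values measure only the spread between replicates, which may be partly technical. That spread was estimated over all 18 libraries and not only over the 6 compared. Levels are also given for P2 resected +3 days, in which the apex was cut off at P2, and for P10 baseline. A summed gene list is also given for P10 resected +3 days. P10 sham +3 days enters through its change from P10 baseline. All of these groups were of the same genotype and also labelled at P1.

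Fibroblasts of the newborn heart divide and lay down the collagen, elastic fibres and proteoglycans that hold the growing muscle, and they slow their division and become more secretory over the first postnatal weeks. Cells of many types, fibroblasts among them, also answer type I interferon, through transcription factors that bind a short repeated element in the promoters of antiviral genes. USP18 and ISG15 are products of this program, and USP18 also limits signalling from the interferon receptor.

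Between 14297349 and 21089775 reads were counted on genes in the 6 libraries. Tcf21, the lineage transcription factor, was at 251, 447 and 296 CPM (read counts made comparable by library size) in the sham libraries and at 285, 312 and 282 CPM in the baseline libraries. Pdgfra, the receptor used to mark cardiac fibroblasts, was at 256 to 559 CPM after sham surgery and 304 to 581 CPM at baseline. Col1a1 and Col3a1 were among the abundant transcripts of all 6 libraries, so the defining genes of the labelled cell type were present in both groups. Across genes, which are not independent replicates, log2 CPM correlated at 0.852 to 0.922 between sham replicates, at 0.912 to 0.933 between baseline replicates and at 0.881 to 0.924 between a sham and a baseline library. The lowest of these correlations lay between a pair of sham libraries. Sham replicate 2 held 2.86% of its counts on ribosomal protein genes, against 1.16% to 1.67% in the other 5 libraries. The 4017 genes with the greatest summed exon length were compared with the mean of the 6 libraries. Their median log2 level was 0.29 in sham replicate 1, -0.39 in sham replicate 2 and -0.15 in sham replicate 3.

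No gene of 16170 tested passed an adjusted p of 0.05 in edgeR's quasi-likelihood test of P2 sham against P2 baseline (0%), and the smallest adjusted p was 0.0908. Without adjustment 1229 genes had a p under 0.05, 670 of them higher after sham surgery (4.14% of genes tested) and 559 lower (3.46%). Without sham replicate 1 these counts were 1192 higher and 1267 lower. That 1 library thus moved the shares that the gene lists are set against and turned their balance. Limma voom gave 1316 higher and 1519 lower. Each list count below at an unadjusted p under 0.05 has these shares as its background. Counts without sham replicate 1 or in limma voom have the larger numbers of those fits as theirs. The 3 sham libraries were all above the 3 baseline libraries for 725 genes (4.48%) and all below them for 885 genes (5.47%). DESeq2 called 94 genes higher (0.581%) and 44 lower (0.272%), and limma voom with sample quality weights called 0. Of the 138 DESeq2 calls, 40 had every library of 1 group at 0, and 93 had both groups above 0 without overlap. The median log2 fold change over all genes tested was 0.03, with 8396 genes positive and 7637 negative. Genes named below therefore did not pass the adjusted test in edgeR, and their values describe these libraries. In such bulk samples fewer cells expressing a gene and less RNA per cell cannot be told apart.

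**Figure D1:**
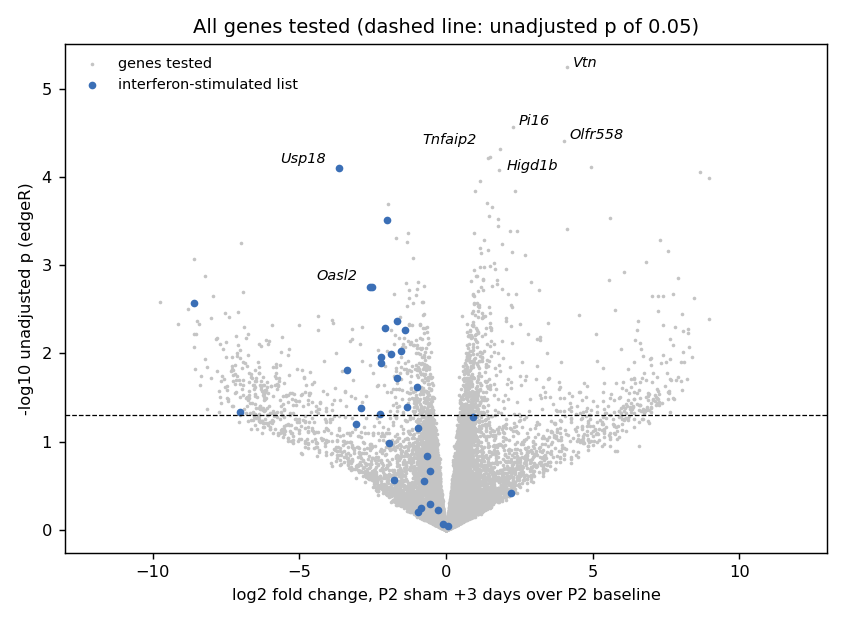
The log2 fold change of P2 sham +3 days over P2 baseline (x axis) is plotted against -log10 of the unadjusted edgeR p (y axis), each grey point being 1 of 16170 genes tested and each blue point 1 of the 34 interferon-stimulated genes tested. Of the blue points, 31 lie below a log2 fold change of 0 and 19 of these lie above the dashed line at an unadjusted p of 0.05.

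The gene with the smallest p was Vtn (chr11:78499091-78502324, GRCm38), which encodes vitronectin, an adhesive glycoprotein of plasma and matrix that pericytes also make. Vtn was at 21.2, 18.4 and 12.01 CPM in the sham libraries and at 2.35, 0.465 and 0.0609 CPM in the baseline libraries. All 3 sham libraries were above all 3 baseline libraries, with a log2 fold change of 4.12 (SE 0.64, adjusted p = 0.0908; DESeq2 adjusted p = 3.57e-10). The P2 resected libraries stood with the sham libraries, at 14.9, 22.045 and 28.8 CPM, and P10 baseline averaged 138 ± 45.3 CPM (SD, n = 3). Without baseline replicate 1 the log2 fold change was 5.91 with an adjusted p of 0.000527, without sham replicate 1 it was 3.93 with an adjusted p of 0.0418, and without baseline replicate 2 it was 3.78 with an adjusted p of 0.427. Over all alternatives the adjusted p of Vtn ran from 4.88e-18 to 1.

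Pi16 (chr17:29317680-29330593), a peptidase inhibitor that marks the adventitial or universal type of fibroblast, was at 40.8, 127 and 72.6 CPM after sham surgery against 13.6, 15.9 and 20.0 CPM at baseline. The groups did not overlap (log2 fold change 2.28, SE 0.40, adjusted p = 0.142), although sham replicate 2 stood well above the other sham libraries. The level in P10 baseline was far higher, at 769.9 ± 273 CPM (SD, n = 3). Olfr558 (chr7:102702215-102712064), an olfactory receptor gene known to be expressed outside the nose in vascular muscle, was at 3.58, 7.29 and 6.40 CPM after sham surgery and at 0.598, 0.419 and 0 CPM at baseline. It differed by 4.01 on the log2 scale (SE 0.73, adjusted p = 0.142), from a baseline near the limit of detection.

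Pcolce2 and Thbd encode a protein that enhances procollagen cleavage and thrombomodulin, a thrombin-binding protein of the cell surface. Pcolce2 (chr9:95637601-95698096) was at 23.8, 38.1 and 19.6 CPM against 11.0, 11.3 and 6.76 CPM at baseline (log2 fold change 1.48, SE 0.28, adjusted p = 0.142). Thbd (chr2:148404466-148408188) was at 47.4, 48.1 and 43.5 CPM against 13.2, 20.6 and 18.5 CPM (log2 fold change 1.41, SE 0.27, adjusted p = 0.142). Within the sham libraries, though not at baseline, it was the most even relative to its mean of the 6 genes with the smallest p in this direction. Tnfaip2 (chr12:111442469-111455018), named for its induction by tumour necrosis factor, was at 45.0, 64.7 and 40.2 CPM against 12.6, 12.9 and 16.9 CPM (log2 fold change 1.83, SE 0.34, adjusted p = 0.142). None of these 3 genes overlapped between the groups. At P10 baseline the means were 131 ± 21.7 CPM for Pcolce2, 165 ± 4.87 CPM for Thbd and 108 ± 18.3 CPM for Tnfaip2 (SD, n = 3), each above its P5 sham level.

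Among the genes with the smallest p in the lower direction, Usp18 belongs to the interferon-stimulated list and is described with it. Tmem108 (chr9:103482947-103761837), which encodes a transmembrane protein, was at 8.96, 5.30 and 5.81 CPM after sham surgery and at 27.3, 32.3 and 20.2 CPM at baseline (log2 fold change -1.99, SE 0.42, adjusted p = 0.202). Nbas, which encodes a protein of retrograde transport from the Golgi to the endoplasmic reticulum, was at 19.6, 15.0 and 22.8 CPM against 47.6, 52.7 and 40.1 CPM (log2 fold change -1.29, SE 0.30, adjusted p = 0.260). Here the P2 resected libraries, at 38.0, 56.3 and 53.3 CPM, stood with the baseline rather than with the sham libraries.

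Taf1a, a subunit of the selectivity factor of RNA polymerase I, was at 5.29, 4.47 and 8.35 CPM against 16.3, 25.7 and 16.7 CPM (log2 fold change -1.70, SE 0.40, adjusted p = 0.277). Sugp2, which encodes a protein with domains found in splicing factors, was at 11.2, 6.87 and 9.20 CPM against 20.7, 26.3 and 21.1 CPM (log2 fold change -1.32, SE 0.31, adjusted p = 0.277). Both were without overlap between the groups. Reads were counted without strand, and other annotated genes share 15.6% of the exon bases of Tmem108 and 1.67% of those of Sugp2, while Nbas and Taf1a share none.

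**Figure D2:**
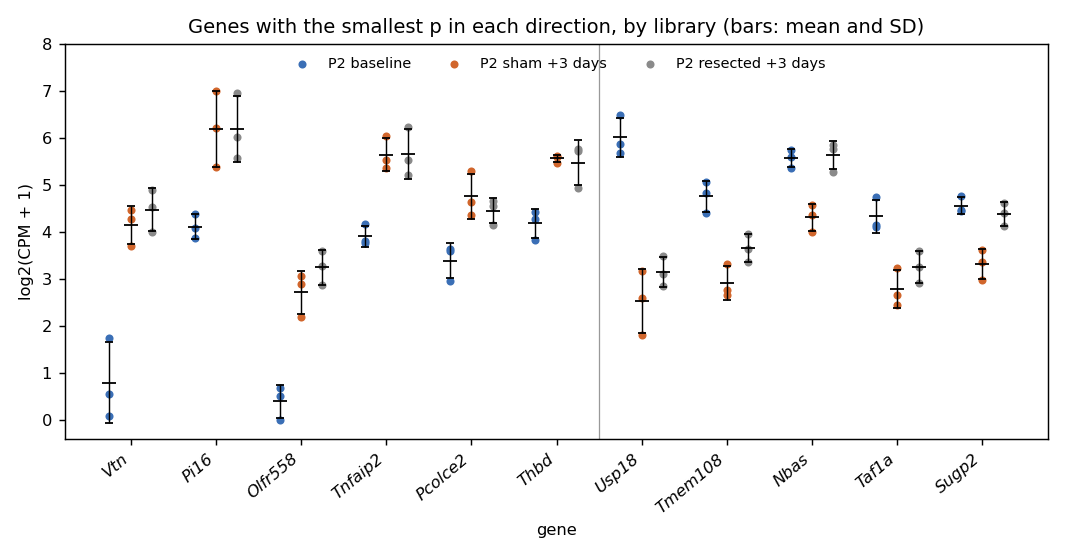
The level of 11 genes as log2(CPM + 1) (y axis) is shown in each library of P2 baseline (blue), P2 sham +3 days (orange) and P2 resected +3 days (grey), with bars for the mean and SD of 3 libraries. Genes left of the vertical line were higher and genes right of it lower in every sham library than in every baseline library. Among the 11, a resected library lies inside the baseline range for Sugp2 alone. The resected libraries lie on both sides of that range for Nbas.

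Among the lists with at least 10 genes tested, the interferon-stimulated genes had the median furthest from 0. Of the 35 genes of the list 34 were tested, and their median log2 fold change was -1.67, against 0.03 for all genes tested. At an unadjusted p under 0.05, 19 were lower and 0 higher after sham surgery, that is 19 of 34 against a background of 3.46% lower. The sham libraries were below all baseline libraries for 21 of the 34, against 5.47% of all genes. None passed the adjusted test in edgeR, although without a filter on low counts 14 of the 35 passed it, all lower, and DESeq2 called 5 of them lower, among them Usp18, Irf7, Oasl2 and Gbp4. Gbp4 was at 0 in every sham library and at 2.72, 1.26 and 3.96 CPM at baseline, and the median of the list was also -1.67 when the 2 genes at 0 in a whole group were set to the bound that 3 counts per library allow. The summed level of the list was 1407.7, 2049.7 and 1247.7 CPM at baseline and 649.6, 623.3 and 510.6 CPM after sham surgery, and it ranged from 429 to 624 CPM in the P2 resected libraries. Baseline replicate 2 was the highest. Without it, the median was -1.22 and 13 genes were lower at an unadjusted p under 0.05. The 6 fits that each left out 1 library gave medians from -1.22 to -1.89 and 13 to 19 such genes. The spread behind the p-values was estimated over all 18 libraries. These include P10 resected replicate 3, where the list summed to 3532.5 CPM, against 939 and 627 CPM in replicates 1 and 2. Fitted on the groups compared alone, 20 of 32 genes tested were lower at an unadjusted p under 0.05. That stood against 291 of all 13935 genes in that fit.

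Usp18 (chr6:121245906-121270917), the interferon-induced protease that removes ISG15, was at 2.51, 7.98 and 5.03 CPM after sham surgery and at 57.2, 88.7 and 50.5 CPM at baseline. Every sham library was thus far below every baseline library (log2 fold change -3.66, SE 0.71, adjusted p = 0.142; DESeq2 adjusted p = 2.18e-05). The P2 resected libraries were at 7.62, 10.2 and 6.22 CPM and P10 baseline averaged 4.16 ± 1.63 CPM (SD, n = 3).

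Irf7, a transcription factor that amplifies the interferon response, was at 18.3, 10.2 and 15.1 CPM against 74.4, 133 and 57.3 CPM (log2 fold change -2.60, SE 0.70, adjusted p = 0.415). Oasl2, of the oligoadenylate synthetase family that senses double-stranded RNA, was at 45.2, 16.0 and 17.1 CPM against 142, 208 and 104 CPM (log2 fold change -2.53, SE 0.68, adjusted p = 0.415). In both genes baseline replicate 2 was the highest of the 6 libraries and no sham library reached the lowest baseline library.

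The promoters of the list were searched for the core of the interferon-stimulated response element, GAAANNGAAA, on both strands (TTTCNNTTTC on the other), in windows of 300 bases that run from 250 before to 50 after each RefSeq gene start (GRCm38.p6). A promoter was matched for 25 of the 34 genes by symbol, and 14 of these held the motif (56.0%). The share was 3.10% of the 11504 promoters matched to genes tested and 3.44% of all 32851. The list is made up of genes known to be interferon-stimulated, so its share does not bear on the change after sham surgery. Windows of 30 bases around the match nearest to the gene start are printed for 4 antiviral genes, chosen after their values were seen, that held the motif upstream of the start and did not overlap between the groups. They read 5′ to 3′ on the strand of the gene, with the match in capitals, and each match is a description of letters and not of a bound site.
Isg15 (chr4:156200865-156200894, minus strand): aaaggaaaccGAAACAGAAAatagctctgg
Ifit1 (chr19:34640794-34640823, plus strand): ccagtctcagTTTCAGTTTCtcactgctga
Ifit3 (chr19:34583397-34583426, plus strand): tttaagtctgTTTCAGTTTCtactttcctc
Gbp3 (chr3:142559995-142560024, plus strand): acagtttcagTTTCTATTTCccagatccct

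Isg15, the ubiquitin-like protein conjugated to targets during the antiviral response, was at 7.24, 24.8 and 7.18 CPM after sham surgery and at 51.6, 77.8 and 52.0 CPM at baseline. Ifit1, which binds foreign RNA ends, was at 0.0464, 4.70 and 7.77 CPM against 21.7, 47.5 and 24.6 CPM. Gbp3, a guanylate-binding protein of the response to interferon, was at 26.5, 16.0 and 19.6 CPM against 69.4, 102 and 57.1 CPM. Ifit3, a partner of Ifit1, was at 3.16, 11.9 and 10.6 CPM against 28.7, 69.7 and 20.7 CPM, with the same window of 30 bases before the start of its close copy Ifit3b, so that reads may be uncertain between these 2 genes. In these 4 genes the sham libraries were below the baseline libraries, and the log2 fold changes were -2.21 (SE 0.78) for Isg15, -2.91 (SE 1.32) for Ifit1, -1.88 (SE 0.65) for Gbp3 and -2.21 (SE 0.80) for Ifit3.

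Not all interferon-related genes had this pattern. Ifit2 was at 53.6, 37.1 and 49.2 CPM after sham surgery and at 65.5, 57.0 and 45.2 CPM at baseline. Ifi27, an interferon-induced mitochondrial protein, was at 37.1, 102 and 53.3 CPM against 34.1, 23.1 and 44.5 CPM. The immunoproteasome genes Psmb8 and Psmb9 overlapped between the groups. Among 15 MHC class I genes the median log2 fold change was -0.08, with 2 higher and 1 lower at an unadjusted p under 0.05. With any 1 library left out, 0 or 1 were higher. The lower gene, Nlrc5, was at 0 in every sham library and at 1.43, 1.72 and 0 CPM at baseline. The 2 higher were H2-K1, at 35.8, 45.4 and 34.1 CPM against 26.7, 19.6 and 23.03 CPM, and H2-D1, at 134, 119 and 144 CPM against 74.7, 64.2 and 113 CPM, which belong to a family of similar sequences and are uncertain for that reason.

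The same contrast at P10, P10 sham against P10 baseline, uses none of these 6 libraries. There edgeR called 1 gene (0.00618%), Angptl4, an inhibitor of lipoprotein lipase, and the fit of these groups alone with the replicate number as a block called 21 (1 without the block). The count was 0 without P10 sham replicate 3, P10 baseline replicate 2 or P10 baseline replicate 3, and 5 without P10 sham replicate 2. After P10 sham surgery 525 genes were higher (3.25%) and 672 lower (4.16%) at p under 0.05 before adjustment. The interferon-stimulated list had a median log2 fold change of 1.07 at P10, with 6 genes higher and 1 lower at an unadjusted p under 0.05. In the test of the difference between the changes at P2 and at P10, edgeR called 0 genes (smallest adjusted p 0.282) and 1067 had an unadjusted p under 0.05 (6.6%), while DESeq2 called 102 and limma voom 0. Of the 34 interferon-stimulated genes, 21 had an unadjusted p under 0.05 for the difference, all in the direction of a lower change at P2, and the median difference was -2.59.

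For single genes, Usp18 differed between the ages by -5.17 on the log2 scale (SE 0.97, unadjusted p = 5.23e-05, adjusted p = 0.282), with a P10 log2 fold change of 1.51. For Vtn the difference was 4.49 (SE 0.82, unadjusted p = 3.99e-05, adjusted p = 0.282), with a P10 log2 fold change of -0.38. Fjx1, which encodes a secreted protein of the four-jointed type, was at 14.2, 25.6 and 24.1 CPM after P2 sham surgery against 7.04, 8.70 and 7.92 CPM at P2 baseline, and its log2 fold changes were 1.43 at P2 and -1.41 at P10 (difference 2.84, SE 0.49, adjusted p = 0.282). Angptl4 was at 127, 135 and 148 CPM against 134, 118 and 107 CPM at P2, a log2 fold change of 0.19, while at P10 it was 1.51 (difference -1.32, SE 0.28, adjusted p = 0.341). In the fit over all 18 libraries no difference between the ages passed the adjusted test. A fit of the groups compared alone called 5 genes, the same fit with the replicate number as a block called 9, and edgeR without a filter on low counts called 171.

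**Figure D3:**
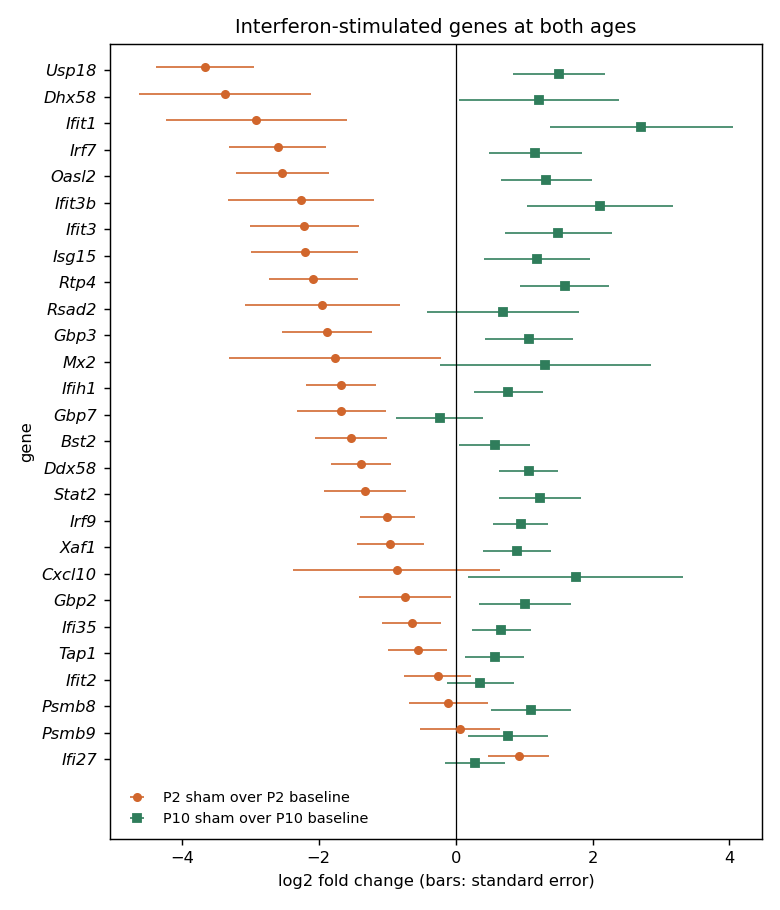
The log2 fold change of sham over baseline with its standard error (x axis) is drawn at P2 (orange circles) and at P10 (green squares) for 27 interferon-stimulated genes (y axis) with a mean CPM above 0.5 in each of the 4 groups. At P2, 25 of the 27 lie below 0, and at P10, 26 lie above it.

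Matrix genes were next described by their roles. The 29 fibrillar, network and other collagens tested had a median log2 fold change of -0.13. At an unadjusted p under 0.05, 2 were higher and 4 lower, against 4.14% and 3.46% of all genes. Without sham replicate 1 the median was -0.48 and 11 were lower, against 1267 of all 16170 genes. Without sham replicate 2 or without sham replicate 3 the count was 1 lower, and without baseline replicate 2 it was 2. The sign of the median turned without sham replicate 3 (0.02). Col1a1, the main fibrillar collagen chain, was at 10274, 5757 and 4339.6 CPM after sham surgery and at 6889, 9859 and 5490.2 CPM at baseline, and Col3a1 at 30396, 22921 and 24595 CPM against 22487, 25336 and 22068 CPM. The groups overlapped for both. Col5a1, which controls the width of collagen fibrils, was at 3632, 2328 and 1832 CPM against 3960.2, 4653 and 3616 CPM (log2 fold change -0.65, SE 0.24, adjusted p = 0.567). Col11a1, a fibril-nucleating chain of cartilage and developing tissue, was at 85.4, 32.0 and 36.1 CPM against 132, 137 and 119.5 CPM. Col18a1, a basement membrane collagen and the source of endostatin, was at 45.6, 27.7 and 70.9 CPM against 93.3, 149 and 74.1 CPM (log2 fold change -1.13, SE 0.32, adjusted p = 0.455).

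The genes of collagen folding and crosslinking had a median of -0.15 over 27 genes. At an unadjusted p under 0.05, 1 was higher (Pcolce2, above) and 3 lower, against 4.14% and 3.46% of all genes. The count of genes lower was 7 without sham replicate 1 and 0 without baseline replicate 1. P4ha1, a prolyl hydroxylase subunit, was at 156, 143 and 148 CPM against 265, 202 and 205 CPM. Plod3, a lysyl hydroxylase, was at 112, 102 and 96.8 CPM against 175, 135 and 132 CPM, and Loxl2, a lysyl oxidase, at 227, 249 and 150.3 CPM against 331, 323 and 365 CPM. These 3 genes were lower in every sham library, with log2 fold changes of -0.59 (SE 0.21), -0.51 (SE 0.21) and -0.70 (SE 0.30) and adjusted p-values of 0.558, 0.615 and 0.615.

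Among 19 genes of elastic fibres and microfibrils, 5 were higher and 1 lower at an unadjusted p under 0.05. The shares of all genes were 4.14% and 3.46%, and the list median was 0.18. Mfap4, a microfibril-associated glycoprotein, was at 702, 769.6 and 600.0 CPM after sham surgery against 352, 313 and 499 CPM (log2 fold change 0.83, SE 0.27, adjusted p = 0.511). Fbln1, a fibulin of basement membranes and elastic fibres, was at 250.3, 401 and 279 CPM against 176, 162 and 191 CPM. Eln itself, the elastin gene, was at 785, 1177 and 712 CPM against 493, 554 and 487 CPM. Fbln2 ran the other way, at 645, 648 and 839 CPM against 1104, 1326 and 885 CPM (log2 fold change -0.64, SE 0.25, adjusted p = 0.597). Hmcn2, a large hemicentin, was at 2.28, 3.23 and 2.35 CPM against 1.15, 1.07 and 1.28 CPM, while P10 baseline averaged 195 ± 123 CPM (SD, n = 3). The count of genes higher was 1 without sham replicate 2 and 2 without baseline replicate 1 or without baseline replicate 2. Leaving out sham replicate 1 gave 6 higher, 3 lower and a median of -0.01.

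Of 38 proteoglycan and matricellular genes, 3 were higher and 0 lower at an unadjusted p under 0.05. The shares of all genes were 4.14% and 3.46%, and the list median was -0.19. Leaving out sham replicate 1 gave 6 lower, and limma voom gave 8 lower. Lum, a small leucine-rich proteoglycan that spaces collagen fibrils, was at 1910.2, 3182 and 3994 CPM against 1238, 1329 and 1856 CPM (log2 fold change 1.04, SE 0.27, adjusted p = 0.407). Smoc2, a calcium-binding matricellular protein, was at 1010.5, 1235 and 1115 CPM against 702, 752 and 833 CPM, and Dcn, decorin, at 7007, 8833 and 9016 CPM against 4935, 5048 and 6959.6 CPM. The sham libraries were higher than the baseline libraries for all 3 genes. Among 18 genes of activated fibroblasts, Fap and Cthrc1 were higher at an unadjusted p under 0.05 and none lower, with overlap between the groups for both. The count higher was 0 without sham replicate 3, baseline replicate 1 or baseline replicate 2, and 3 were lower without sham replicate 1. Postn, the matricellular protein periostin of activated and neonatal fibroblasts, was at 17359, 6223 and 12591 CPM against 13693, 15604 and 11555 CPM.

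Genes of the universal or adventitial fibroblast type had a median of 0.45 over 14 genes. At an unadjusted p under 0.05, Pi16, Clec3b and Cd34 were higher, against 4.14% of all genes. Without sham replicate 1 there were 6 higher, against 1192 of all 16170 genes. Clec3b, tetranectin, was at 101, 338 and 158 CPM after sham surgery against 65.4, 60.7 and 86.5 CPM at baseline (log2 fold change 1.49, SE 0.38, adjusted p = 0.371). Sham replicate 2 was the highest library for both Clec3b and Pi16. Among insulin-like growth factor genes, Igfbp3, a binding protein that carries the factors, was at 89.8, 72.1 and 67.5 CPM against 262, 268 and 115 CPM (log2 fold change -1.49, SE 0.50, adjusted p = 0.529). The log2 fold change of Igfbp3 at P10 was 1.83, and the difference between the ages was -3.32 (SE 0.71, adjusted p = 0.341). Igfbp4 was at 1075, 1675 and 1456 CPM against 827, 733 and 1108 CPM, and Igfbp6 at 11.4, 57.2 and 34.5 CPM against 11.8, 9.16 and 19.5 CPM. The list of 17 such genes had 3 members higher and 1 lower at an unadjusted p under 0.05, against 4.14% and 3.46% of all genes. Its median was -0.22. The median was -0.72 without sham replicate 1, with 4 lower, and without sham replicate 2 it was 0.12 with 1 higher, and without baseline replicate 2 it was 0.01 with 1 higher.

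None of 43 S phase genes and none of 54 G2/M genes had an unadjusted p under 0.05 in the edgeR fit over all 18 libraries at P2, and the medians were -0.28 and -0.02. With 1 library left out the S phase median ran from -0.15 (without baseline replicate 3) to -0.38 (without baseline replicate 2), and the G2/M median from -0.12 (without sham replicate 1) to 0.10 (without sham replicate 2). Of the S phase genes 33 of 43 had a negative log2 fold change, against 7637 of all 16170 genes tested. For 7 of the 43 every sham library was below every baseline library, against 5.47% of all genes. The replication licensing genes Mcm2, Mcm6 and Cdc6 were among these 7. Of the G2/M genes 2 were higher and 2 lower without overlap. Limma voom gave 8 S phase genes lower at an unadjusted p under 0.05, without sham replicate 1 edgeR gave 2, and fitted on the groups compared alone, with or without the replicate block, it gave 3. Cdk1, the mitotic kinase, was at 108, 262 and 213 CPM after sham surgery and at 168, 136 and 162 CPM at baseline, and Ccnb1, its cyclin, at 34.7, 67.6 and 89.7 CPM against 73.8, 55.9 and 72.4 CPM. Mki67, the proliferation marker, was at 433, 33.3 and 80.3 CPM against 282, 246 and 138 CPM, so the sham libraries spanned both ends of the range. Its exons cover 10061 bases. Sham replicates 1 and 2 were the highest and the lowest for Mki67. They also had the highest and the lowest levels of the 4017 genes with the greatest summed exon length. The part of exon length in these values was not tested. At P10 the G2/M list had a median of -0.89. There 20 genes were lower at an unadjusted p under 0.05, against 4.16% of all genes. For the difference between the ages 11 of the 54 had an unadjusted p under 0.05, against 6.6% of all genes.

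Of 23 growth arrest and p53 target genes, 3 were higher and 0 lower at an unadjusted p under 0.05. The shares of all genes were 4.14% and 3.46%. The list median was 0.36, and 5 were higher without sham replicate 1. Gas6, a ligand of the TAM receptor kinases first found in arrested fibroblasts, was at 71.3, 103 and 63.2 CPM against 31.2, 38.5 and 35.8 CPM (log2 fold change 1.17, SE 0.28, adjusted p = 0.302). Cdkn2d, an inhibitor of the kinases CDK4 and CDK6, was at 77.3, 91.1 and 62.2 CPM against 40.8, 48.6 and 44.4 CPM. Both were higher in every sham library. Cdkn2c, of the same inhibitor family, was at 41.8, 118 and 90.9 CPM against 34.0, 43.6 and 64.3 CPM and overlapped.

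Of 24 imprinted growth genes, 1 was higher and 3 lower at an unadjusted p under 0.05, against 4.14% and 3.46% of all genes. Among the 3 lower, Ascl2 was at 0 in every sham library and at 0, 0.977 and 0.122 CPM at baseline. The list median was -0.37. Without sham replicate 1 the median was -0.86 with 7 lower, against 1267 of all 16170 genes. Limma voom gave 13 lower, against 1519 of all genes. The count was 1 lower without sham replicate 2, sham replicate 3 or baseline replicate 2. Dlk1, an inhibitor of adipocyte differentiation that is high in fetal tissue, was at 776, 756 and 563 CPM after sham surgery against 1104, 1164 and 1517 CPM at baseline (log2 fold change -0.85, SE 0.35, adjusted p = 0.615). The P2 resected libraries were at 721, 803 and 538 CPM and P10 baseline at 404 ± 42.5 CPM (SD, n = 3). H19, the imprinted noncoding RNA, was at 455, 1172 and 709.7 CPM against 715, 605 and 963 CPM and Igf2, the fetal growth factor, at 71.8, 44.7 and 62.9 CPM against 62.8, 90.4 and 55.8 CPM. Both overlapped, and other annotated genes share 64.5% of the exon bases of Igf2. Igf2bp3, an oncofetal RNA-binding protein, was at 30.1, 14.1 and 27.8 CPM against 46.7, 42.6 and 33.7 CPM.

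Of 53 oxidative phosphorylation genes 47 had a positive log2 fold change, against 8396 of all 16170 genes tested. Their median was 0.35, but none had an unadjusted p under 0.05. Their summed level was 8745, 7964 and 11577 CPM at baseline and 6456, 15426 and 12127 CPM after sham surgery. Sham replicates 1 and 2 thus held the lowest and the highest sums. Without sham replicate 2 the median was 0.003, and without sham replicate 1 it was 0.61. In the latter fit 21 genes were higher at an unadjusted p under 0.05, against 1192 of all 16170 genes. Over all genes the median log2 fold change was 0.25 for the 4017 genes with the smallest summed exon length. It was -0.16 for the 4017 with the greatest, and the part of exon length in these values was not tested.

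Of 19 glycolysis genes 1 had a positive log2 fold change, against 8396 of all 16170 genes tested. The median was -0.26 (-0.10 without sham replicate 1 and -0.39 without baseline replicate 2). At an unadjusted p under 0.05, 2 were lower, and 1 without sham replicate 2, sham replicate 3 or baseline replicate 1. The 2 were Slc2a1 and Aldoc, and Aldoc was at 0 in every sham library and at 1.24, 0.233 and 0 CPM at baseline. Slc2a1, the glucose transporter GLUT1, was at 14.0, 9.41 and 7.64 CPM against 32.1, 26.2 and 19.8 CPM (log2 fold change -1.33, SE 0.38, adjusted p = 0.458). Fabp5, a fatty acid carrier, was at 152, 279.6 and 262 CPM against 383, 336 and 488 CPM, and Slc27a1, a fatty acid transporter, at 21.97, 29.9 and 15.8 CPM against 11.1, 13.8 and 12.7 CPM. Neither overlapped between the groups, and they lay in opposite directions. The 22 cholesterol synthesis genes had a median of -0.04 and none at an unadjusted p under 0.05, with 2 higher without sham replicate 1 or without baseline replicate 3.

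**Figure D4:**
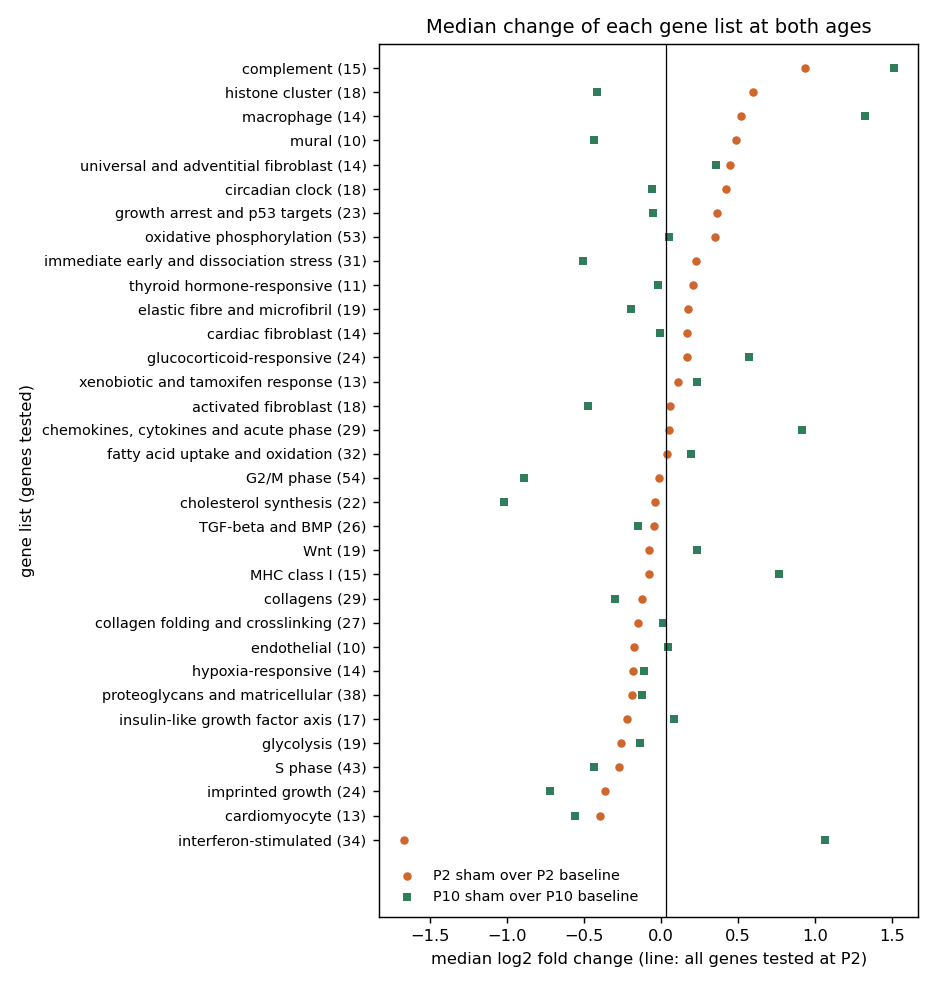
The median log2 fold change of sham over baseline (x axis) of each gene list with at least 10 genes tested (y axis, number tested in brackets) is shown at P2 (orange circles) and at P10 (green squares), with a line at 0.03, the median of all genes tested at P2. The interferon-stimulated list is lowest at P2, at -1.67, and stands at 1.07 at P10.

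Genes of the response to wounding and stress were also examined. Complement had a median of 0.94 over 15 genes. It was 0.77 with the gene at 0 in a whole group set to the bound of 3 counts per library. At an unadjusted p under 0.05, 4 were higher and 0 lower, against 4.14% and 3.46% of all genes. The count higher was 2 without sham replicate 2, sham replicate 3 or baseline replicate 2, and limma voom gave 0 higher and 1 lower with a median of 0.44. C1s1, a protease of the first complement component, was at 30.2, 24.9 and 11.3 CPM after sham surgery against 7.32, 5.86 and 0.853 CPM at baseline (log2 fold change 2.23, SE 0.65, adjusted p = 0.458). C1ra, the protease that activates it, was at 19.6, 30.8 and 15.7 CPM against 12.5, 5.30 and 5.42 CPM. Both were without overlap, and both have close copies in the genome, so that their counts are uncertain. At P10 the complement list had a median of 1.51 with 9 genes higher at an unadjusted p under 0.05, against 3.25% of all genes. The differences between the ages for C1s1 and C1ra were 0.21 (SE 0.86) and -0.36 (SE 0.65) on the log2 scale.

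Of 29 chemokine, cytokine and acute phase genes, 4 were higher and 1 lower at an unadjusted p under 0.05. The shares of all genes were 4.14% and 3.46%, and the list median was 0.05. Without sham replicate 1 the median was -0.12, and the count higher was 1 without baseline replicate 2 and 2 without sham replicate 2 or without baseline replicate 3. Cxcl12, a chemokine that retains CXCR4+ cells, was at 34.3, 75.0 and 61.7 CPM against 20.3, 30.2 and 20.8 CPM (log2 fold change 1.26, SE 0.34, adjusted p = 0.415). Saa3, an acute phase protein, was at 0, 3.87 and 0 CPM after sham surgery and at 0 in every baseline library, so its value rests on sham replicate 2. In the P2 resected libraries it was at 21.6, 7.18 and 9.58 CPM. Of 24 glucocorticoid-responsive genes 0 were higher and 2 lower at an unadjusted p under 0.05, against 4.14% and 3.46% of all genes. The 2 were Sgk1 and Lcn2. Lcn2, also the gene lower in the chemokine list, was at 0 in every sham library and at 1.24, 0.884 and 0 CPM at baseline. The count lower was 0 without sham replicate 2, sham replicate 3, baseline replicate 1 or baseline replicate 2. The median of 0.17 turned to -0.32 without sham replicate 1, with 3 lower. Fkbp5, a sensitive target of the hormone, was at 52.6, 38.3 and 41.2 CPM against 58.4, 105 and 75.6 CPM. At P10 the glucocorticoid-responsive list had 6 genes higher at an unadjusted p under 0.05, against 3.25% of all genes. Fkbp5 differed between the ages by -2.16 on the log2 scale (SE 0.67, adjusted p = 0.555).

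The 31 immediate early genes, which tissue dissociation also induces, had a median of 0.23 with 1 higher and 1 lower at an unadjusted p under 0.05. The sign of that median rested on sham replicate 1, without which it was -0.68 with 5 lower and 0 higher, and it was -0.49 in limma voom. Fos was at 1724, 852 and 466 CPM after sham surgery and at 1502, 1468 and 1271 CPM at baseline. The sham libraries spread on both sides of the baseline libraries. Of 18 circadian genes 3 were higher at an unadjusted p under 0.05 and 0 lower, with 1 higher without sham replicate 1 or without baseline replicate 1 and 5 higher without baseline replicate 3. Cry1, a repressor of the clock, was at 53.2, 43.3 and 50.9 CPM against 26.7, 22.6 and 26.5 CPM (log2 fold change 0.96, SE 0.25, adjusted p = 0.371), and the hour of collection is not given in the sources used here. The xenobiotic and tamoxifen response list had 1 of 13 genes higher and 1 lower at an unadjusted p under 0.05, with a median of 0.11 that was -0.13 without sham replicate 1 or without baseline replicate 3. The higher gene was Ces1d, a carboxylesterase with close copies in the genome, at 2.88, 5.21 and 0.0653 CPM after sham surgery and at 0 in every baseline library (adjusted p = 0.142, DESeq2 adjusted p = 2.99e-05). The lower gene was Gstm1, a glutathione transferase, which was at 191, 190.0 and 176 CPM against 314, 281 and 333 CPM (log2 fold change -0.74, SE 0.20, adjusted p = 0.415).

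Markers of other cell types were measured because a sort can carry them over. The erythroid list had a median of 2.38 over 7 genes, with 6 higher at an unadjusted p under 0.05, and its summed level was 51.0, 308 and 149 CPM after sham surgery against 36.7, 25.025 and 47.2 CPM at baseline. Hbb-bs, an adult beta globin, was at 26.5, 169 and 75.6 CPM against 18.6, 12.8 and 20.5 CPM, and globin copies of similar sequence are uncertain. Every sham library was above every baseline library in the summed level. Without sham replicate 2 the count was 3 and the median 1.18, and the count was also 3 without baseline replicate 1 or without baseline replicate 2.

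In the mural list of 10 pericyte and smooth muscle genes, 3 were higher and 0 lower at an unadjusted p under 0.05. The 3 were Vtn, Higd1b and Kcnj8. Limma voom gave 3 higher and 2 lower, and leaving out sham replicate 1 gave 3 higher and 1 lower. The median of 0.49 ran from 0.17 without baseline replicate 3 to 0.77 without sham replicate 3. Higd1b, a pericyte marker, was at 16.7, 20.6 and 20.7 CPM against 5.29, 5.35 and 5.79 CPM (log2 fold change 1.82, SE 0.36, adjusted p = 0.142). Kcnj8, a potassium channel subunit of pericytes, was at 90.8, 134 and 57.8 CPM against 35.6, 42.9 and 53.6 CPM, and Rgs5, a further pericyte gene, at 276, 167 and 167 CPM against 126, 124 and 113 CPM. These 4 pericyte genes, Vtn included, did not overlap between the groups. The summed level of the list did, at 1282, 733.6 and 554.5 CPM after sham surgery and 699.9, 741 and 472 CPM at baseline. Pdgfrb, the receptor shared by mural cells and fibroblasts, ranged from 176 to 414 CPM and from 126 to 256 CPM. The part of mural cells in the values of Vtn was not tested.

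Macrophage genes were low and uneven, with summed levels of 5.29, 104 and 195 CPM after sham surgery and of 69.0, 66.8 and 15.0 CPM at baseline. None of the 14 had an unadjusted p under 0.05 in edgeR (2 were higher without sham replicate 1 and 1 without baseline replicate 2), and Itgam was at 0 in all 6 libraries. Sham replicate 1 was at 0 for Csf1r, C1qa and Adgre1, and the part of macrophages in the other results was not tested. The cardiomyocyte list summed to 1054 to 1476 CPM after sham surgery and 1248 to 1638 CPM at baseline, and the endothelial list to 180 to 335 CPM and 211 to 349 CPM, with none of their 13 and 10 genes at an unadjusted p under 0.05 (up to 2 lower with 1 library left out). The epicardial list had 1 of 9 genes higher and 1 lower, and each rests on 1 library. Krt8 was at 0, 3.09 and 0 CPM after sham surgery and at 0 at baseline. Lrrn4 was at 0 after sham surgery and at 3.22, 0 and 0 CPM at baseline. The neutrophil, lymphocyte, Schwann and adipocyte lists, with 6, 3, 3 and 1 genes tested, had none at that threshold.

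Signalling lists held few genes past the unadjusted threshold. The Wnt list had 0 of 19 genes higher and 2 lower at an unadjusted p under 0.05, and the TGF-beta and BMP list 2 of 26 higher and 2 lower. The hypoxia-responsive list had 0 of 14 higher and 2 lower, which were P4ha1 and Slc2a1, given above with other lists. The thyroid hormone-responsive list had 1 of 11 higher and 2 lower. Counts as small as these moved by 1 or 2 genes when a library was left out, the hypoxia-responsive list reaching 4 lower and the thyroid hormone-responsive median turning from 0.21 to -0.31 without sham replicate 1. Of 18 histone cluster genes, whose transcripts mostly lack a poly(A) tail, 16 had a positive log2 fold change. Of all 16170 genes tested 8396 had one. None of the 18 reached an unadjusted p under 0.05. The histone median of 0.60 was 1.09 without sham replicate 1, with 3 genes higher, and 0.03 without sham replicate 2. The cardiac fibroblast markers had 3 of 14 higher and 0 lower, with a median of 0.17, and 1 higher without baseline replicate 1 or without baseline replicate 2. Lum and Dcn, also counted in the proteoglycan list, were 2 of the 3. The third, Tbx5, was at 0, 4.52 and 0.326 CPM after sham surgery against 0, 0.0465 and 0 CPM, and rests on sham replicate 2. Without sham replicate 1, and in limma voom, 2 of the 14 markers were lower, and 1 was lower without baseline replicate 3.

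Transcripts of the sex chromosomes varied between libraries of the same group. Xist, which is expressed from the inactive X chromosome, was at 274, 0 and 33.7 CPM after sham surgery and at 21.9, 95.4 and 0 CPM at baseline. Ddx3y, on the Y chromosome, was at 0, 32.1 and 0 CPM against 68.4, 35.0 and 71.8 CPM. Sham replicates 1 and 3 had no Y-linked Ddx3y counts, while each baseline library had them, and the part of sex in the other results was not tested.

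**Figure D5:**
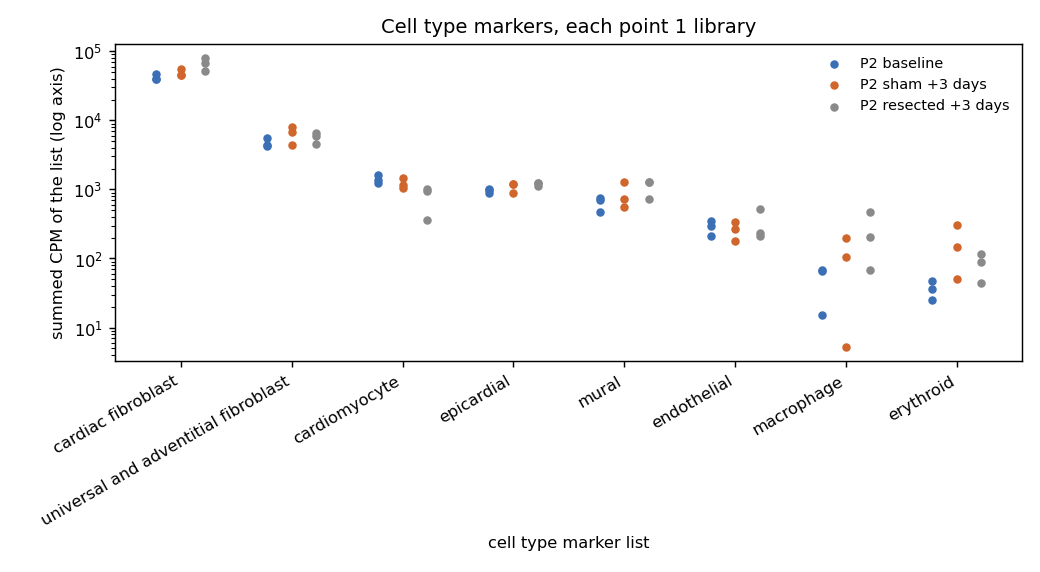
The summed CPM of 8 cell type marker lists (y axis, log scale) is shown for each library of P2 baseline (blue), P2 sham +3 days (orange) and P2 resected +3 days (grey). The erythroid sums are higher in all 3 sham libraries than at baseline, the macrophage sums run from 5.29 to 195 CPM within the sham group, and the mural sums overlap.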

How the data were processed

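Single-end reads came from SMARTer v4 cDNA of sorted GFP+ cells, tagged by Nextera XT. Per the study's methods and processing notes, the authors trimmed reads with fastp 0.20.0, mapped them to GRCm38.p6 with STAR 2.7.0f and counted them on exons per gene symbol of Gencode M22 with featureCounts (Subread 1.6.4), without strand. The deposited values are these raw counts. Here, of 55453 symbols, 28906 had a count and 16170 passed filterByExpr (minimum count 10, minimum total 15). edgeR 4.0.16 in R 4.3.3, with TMM scaling and 1 mean per group over all 18 libraries, gave quasi-likelihood tests with Benjamini-Hochberg adjustment at 0.05. DESeq2 (also used by the authors; version 1.42.0 here) and limma 3.58.1 were alternatives, besides other scalings, filters and left-out libraries. CPM are TMM-scaled. Library totals in the series ran from 10462737 to 22980554. The lowest chi-square per gene between libraries compared was 36.3, so none was counted as a duplicate. Same-numbered P2 libraries did not deviate together (r of -0.00 to -0.13), while P10 pairs did (0.11 to 0.33). Gene positions and shared exon bases come from GENCODE M21. With no gene called, genes named are the 6 per direction of smallest p with a group mean of at least 5 CPM, 2 per direction for the difference between ages, up to 4 of smallest p per list and a set of markers, and other list members named as examples were picked after their values were seen. The comparison, lists and rule were chosen with earlier results of these data known. Some genes that the rule picks are not reported here.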

Additional observations from a re-analysis of the deposited data

How the results depend on the processing

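For P2 sham against P2 baseline edgeR called 0 genes, also with DESeq2's size factors, with total count scaling, with at least 1 CPM in 3 libraries, in the fit of the groups compared alone and with the replicate block (0), and limma voom called 0. DESeq2 called 138 and edgeR without a filter on low counts 110. Leaving out 1 library gave 0 to 10 calls. The 10 came without sham replicate 1 (Vtn, Pi16 and Olfr558 among them). For P10 sham against P10 baseline the count was 1 in edgeR, 124 in DESeq2, 151 without a filter, 21 with the replicate block and 0 to 5 with 1 library left out. For the difference between the ages it was 0 in edgeR, 102 in DESeq2, 171 without a filter, 5 with the groups compared alone, 9 with the replicate block and 0 to 2 with 1 library left out. The cause of these shifts was not tested. Of 88 single genes followed, 78 kept the sign of their log2 fold change in every alternative. Signs turned for Ccnb1 in limma voom (0.15), H19 with the replicate block (-0.055) and Xist in limma voom (-1.24). With 1 library left out the log2 fold change ran from -0.090 to 0.34 for Tcf21, from -0.60 to 0.16 for Pdgfra, from -0.55 to 0.13 for Col1a1, from -0.53 to 0.15 for Postn, from -1.97 to 0.22 for Mki67, from -0.40 to 0.22 for Ccnb1, from -0.37 to 0.011 for Igf2, from -0.37 to 0.31 for H19, from -1.22 to 3.22 for Xist and from -0.69 to 1.04 for Fabp4. A gene with no count in a library may still have up to 3 counts at this depth, and counting error alone is covered by that limit.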
